A study of Mus musculus with 17 samples.

Results

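The immunoglobulin heavy chain variable genes (Ighv genes) were examined in cochlear RNA from 17 mice. All genes annotated as immunoglobulin variable genes whose symbol begins with Ighv were taken, which gave 106 of the 35285 genes measured, and the 33 Ighv pseudogenes were left out. The mice were male wild-type C57BL/6J animals aged 8 weeks, and each gave 1 library. The 3 controls received saline on the same schedule and no noise. The 7 mice of the noise exposure (NE) group were exposed for 2 h to noise of 8 to 16 kHz at 100 dB, and the sources used here do not say whether they were injected. The 7 mice of the brimonidine group went through the same noise and were dosed intraperitoneally with brimonidine (1 mg/kg, 3 injections), which activates α2-adrenergic receptors, on the day before, the day of and the day after the exposure. RNA was collected 2 days after exposure. Among the Ighv genes the study singled out Ighv1-52, and the comparisons ask how the whole family behaved around it.

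A B cell builds its heavy chain gene by joining a single Ighv gene to a diversity and a joining segment, so the Ighv gene found in its RNA marks the rearrangement that the cell and its descendants carry. The Ighv gene encodes most of the variable domain of the heavy chain, which binds antigen together with that of the light chain, and the constant genes, such as Ighm or Ighg2c, supply the class. Plasma cells, the antibody-secreting end stage of this lineage, hold far more of this RNA per cell than other B cells, so a small number of plasma cells can set the Ighv profile of a tissue. The cochlea lies in bone, and bone marrow is where B cells form and where many plasma cells stay.

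The libraries held 14457733 to 18288854 counted fragments, of which 3951 to 88912 fell on Ighv genes. Control 2 stood apart from the other libraries. Its Ighv fragments were the fewest, and its summed FPKM (fragments per kilobase of exon, scaled by the library's counted fragments, a level per length) was the lowest of the 17 libraries for the plasma cell markers, at 608 against 2097 to 5355 in the others, and for the neutrophil markers, at 9965. The plasma cell markers include Igha, Ighg2b and Jchain, so their sum holds antibody RNA. Control 2 had the highest sums for B-cell precursor markers at 50.6, erythroid markers at 9643 and osteoblast markers at 1372. It was also the highest for cochlear epithelium markers at 1352, hair cell markers at 32.2 and cerebellar neuron markers at 503. The 3 controls had 189 to 503 for the 8 cerebellar neuron markers, the NE group 4.34 to 14.9 and the brimonidine group 5.05 to 59.1, with the highest of these in brimonidine 5, and all 8 were called lower in both exposed groups against control (without control 2, 5 of 5 tested in the NE group and 8 of 8 in the brimonidine group). The labels name the source as cochlear cells and the cell type as interstitial cells, for which no defining markers were listed here. The 9 cochlear epithelium markers summed to 544 to 1352 in every library, none was at 0 in all of them and 2 were under 1 FPKM throughout. The part of these differences in dissection or cell content in the results below was not tested, and the main comparisons with control are given with and without control 2.

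The Ighv genes covered a wide range of levels. By their mean over the 17 libraries, 24 were at 100 FPKM or more, 79 at 10 or more and 92 at 1 or more. In every library 71 of them reached 1 FPKM, 7 stayed under 1 FPKM throughout and 1 of those 7, Ighv2-7, was listed at 0 in all. The 6 others under 1 FPKM were Ighv6-4, Ighv6-5, Ighv6-7, Ighv8-9, Ighv8-11 and Ighv11-1. By its mean Ighv3-6 was the highest with 447 FPKM, followed by Ighv1-26 with 406, Ighv14-2 with 350, Ighv9-3 with 276 and Ighv1-80 with 253.

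The summed Ighv level differed most among the controls and within the NE group. The total was 5534 FPKM in control 1, 712 in control 2 and 6028 in control 3. In the NE group it was 9324, 13746, 8521, 9484, 10071, 4629 and 5703 FPKM in NE 1 to NE 7. In the brimonidine group it was 5714, 6667, 6378, 5917, 5210, 6208 and 7539 FPKM in brimonidine 1 to 7. The first 5 NE libraries lay above every other library, whereas NE 7 lay among the brimonidine libraries and controls 1 and 3, NE 6 was below all of these, and the groups overlapped. The means were 4092 ± 2937 (SD, n = 3) in controls, 8783 ± 2997 (n = 7) after noise alone and 6233 ± 745 (n = 7) after noise with brimonidine. On the log2 scale the NE total exceeded the control total by 1.53, or by 0.53 without control 2, and the difference of the brimonidine total from the NE total was -0.42. Against control the brimonidine total was 1.11 higher, or 0.10 higher without control 2. No p-value is given for these totals. In a bulk sample, fewer cells of a type and less RNA per cell cannot be told apart.

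**Figure D1:**
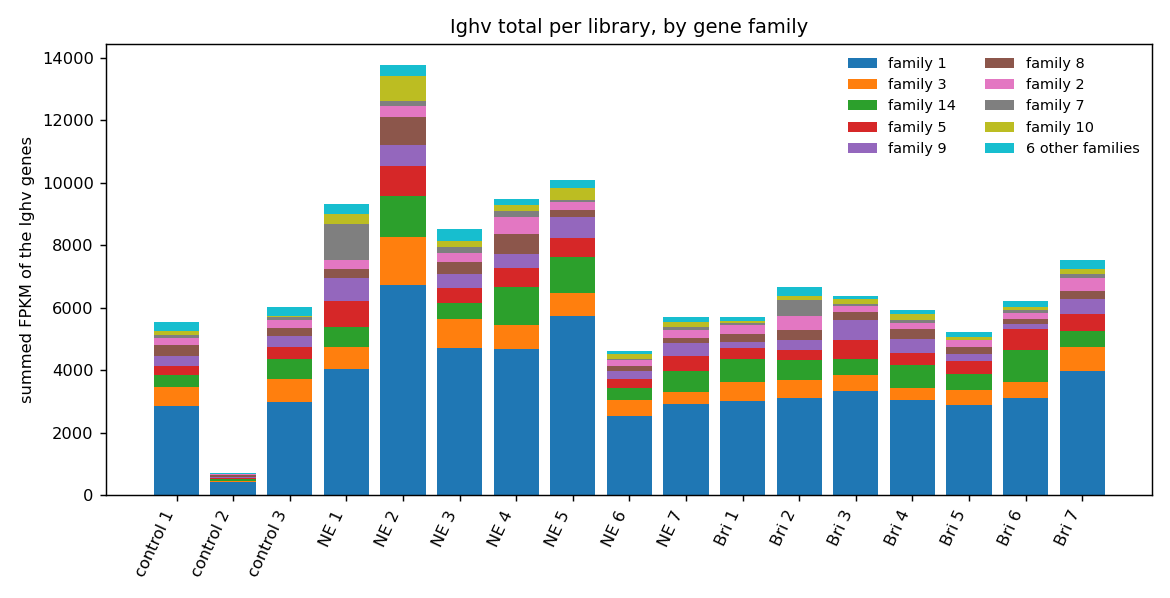
Summed FPKM of the 106 Ighv genes in each of the 17 libraries (1 bar per mouse), divided by gene family, the first number of the gene symbol. Control 2 has the lowest total at 712 and NE 2 the highest at 13746, and family 1 is the largest block in every bar.

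The Ighv total moved together with the other chains of the antibody. Divided by the summed FPKM of the 100 kappa chain variable genes (Igkv), which supply the light chain partner, it gave 0.749 to 0.883 over the 17 libraries, and control 2 was within that range at 0.818. The ratio to Igkc, the kappa constant gene, was 0.675 to 1.07, and the ratio to the 8 heavy constant genes together was 1.03 to 1.41, with the lowest value in control 2. Control 2 differed from the others in the balance of its classes. Ighg2c, the constant gene of the IgG2c class, stood at 107 FPKM there against 2459 in control 1 and 2401 in control 3. Ighm, the constant gene of the IgM class, stood at 138 FPKM in control 2, close to 135 in NE 5 and 133 in NE 1, and at 82.1 and 51.1 in the other 2 controls. The ratio of the Ighv total to Ighm was 5.16 in control 2 and 47.9 to 145 in the other 16 libraries. Jchain, which joins the units of secreted IgM and IgA, gave a ratio of 6.50 in control 2 and 10.4 to 17.1 elsewhere.

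No single Ighv gene dominated a library. The largest share of the Ighv total held by a single gene was 5.48% to 11.4%, the 10 highest genes of a library held 39.5% to 49.1%, and 11 to 15 genes made up 50% of it. Ighv3-6 was the highest gene in 7 libraries (control 3, NE 2, NE 3 and brimonidine 1, 2, 5 and 7). Ighv1-85 led in NE 5 and NE 7, and Ighv1-80 led in NE 6 and brimonidine 4. The other 6 libraries were each led by a gene of their own, Ighv1-74 in control 1, Ighv1-26 in control 2, Ighv7-3 in NE 1, Ighv8-12 in NE 4, Ighv9-3 in brimonidine 3 and Ighv14-2 in brimonidine 6. The order of the genes was nevertheless similar between mice. Spearman's rho over the 106 genes, which share the same annotation and counting, was 0.781 to 0.913 over the 136 pairs of libraries, with a median of 0.853, and it was 0.781 to 0.846 for the 16 pairs that include control 2. The 12 genes with the highest means held 35.9% of the total in control 2 and 39.1% to 49.2% in the others.

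Ighv3-6, the gene that led most often, varied in its share. It held 9.05%, 3.54% and 9.21% in the controls, 4.40% to 8.59% with a median of 5.48% in the NE group, and 4.79% to 8.12% with a median of 6.72% in the brimonidine group. Ighv1-26 had the steadiest share of the 71 genes at 1 FPKM or more in every library. It held 6.96%, 5.48% and 6.89% in the controls, 3.75% to 6.34% (median 5.40%) after noise alone and 5.10% to 8.06% (median 6.18%) with brimonidine, a coefficient of variation of 17.4% after noise alone and 17.2% with brimonidine. The median coefficient of variation over those 71 genes was 53.5% after noise alone and 51.8% with brimonidine, so that most single genes varied between mice of a group far more than Ighv1-26 did.

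Single genes differed widely between mice, and some stood high in 1 or 2 mice. Ighv7-3 reached 1060 FPKM, 11.4% of the total, in NE 1 and 404 FPKM, 6.06%, in brimonidine 2, while the other 15 libraries had 0.32% to 1.68%. Ighv1-5 stood at 282 FPKM in control 3 and 173 in brimonidine 5, with 1.83 to 76.7 FPKM in the others. Ighv1-74 stood at 586 FPKM in control 1, where it was 10.6% of the total, at 14.5 and 69.8 FPKM in the other 2 controls, at 80.5 to 406 in the NE group and at 71.8 to 375 in the brimonidine group. Within the NE group Ighv1-85 ranged from 30.4 FPKM in NE 6 to 925 in NE 5, with 502 in NE 2 and 396 in NE 7. The spread of these 2 genes was thus not that of a single high mouse. Ighv1-15 reached 466 FPKM in NE 3, 289 in NE 5 and 261 in NE 2, Ighv1-42 reached 234 in NE 1 and 180 in NE 6, and Ighv1-81 held 5.03% of the small total of control 2. These high values fell in all 3 groups.

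**Figure D2:**
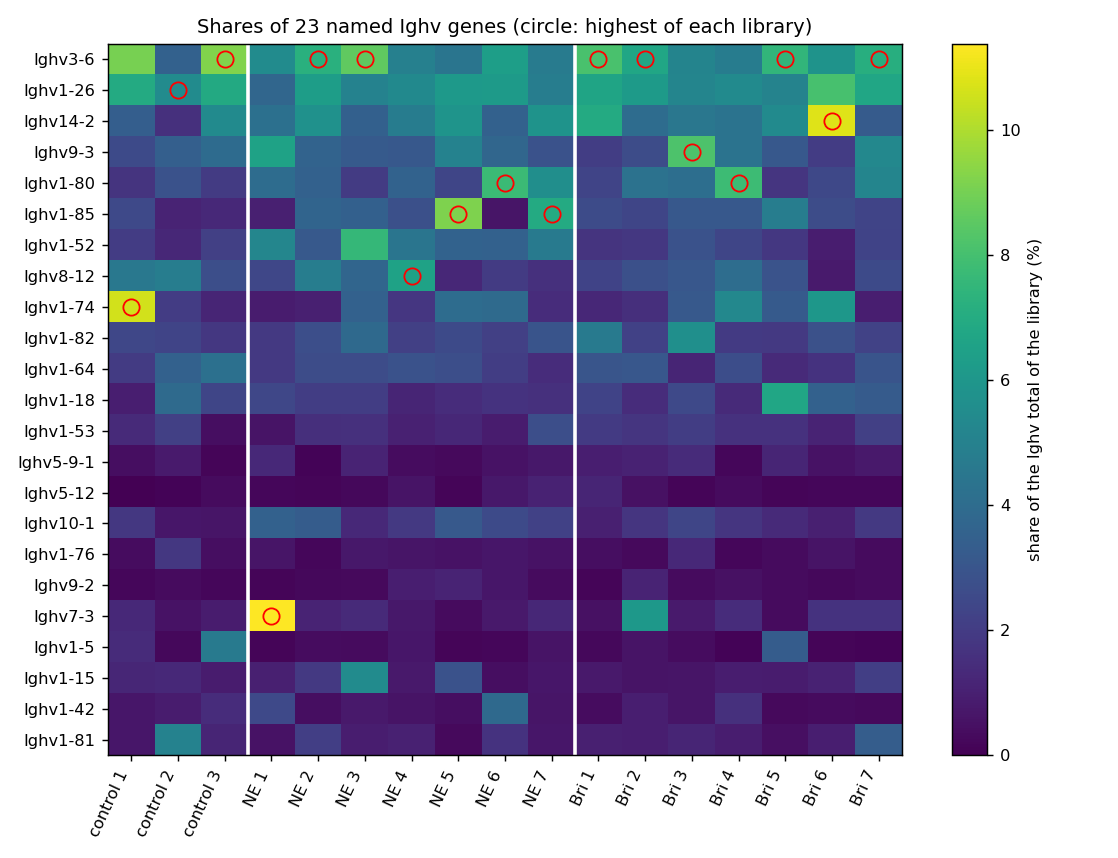
Share of the Ighv total (color scale, %) for the 23 named Ighv genes (rows) in the 17 libraries (columns, groups separated by white lines), with a circle on the highest gene of each library. Ighv3-6 and Ighv1-26 are bright in nearly every column, whereas Ighv7-3 is bright in NE 1 (11.4%) and brimonidine 2 (6.06%) and dark elsewhere.

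The diversity of the Ighv genes was close between the groups. As a measure, the effective number was used, which is the number of equally abundant genes that would give the same Shannon entropy. It was 43.5, 53.8 and 47.4 genes in controls 1 to 3, 43.4 to 48.8 with a median of 46.3 in the NE group, and 42.6 to 49.0 with a median of 46.5 in the brimonidine group. Control 2 was the highest and brimonidine 1, at 49.0, the next, and the groups overlapped throughout. The means were 48.2 ± 5.18 (SD, n = 3), 46.4 ± 2.15 (n = 7) and 46.7 ± 2.16 (n = 7). The difference of the NE group from control was -1.81 genes, and 0.97 without control 2. The inverse Simpson index, which weighs the most abundant genes more, gave 33.0 ± 6.93, 32.1 ± 2.81 and 32.4 ± 2.67. Genes at 1 FPKM or more numbered 75 in control 2 and 85 to 92 in the other libraries, and control 2 also had the fewest Ighv fragments. In an equal draw of 3951 Ighv fragments from each library, the number in control 2, 86.4 to 90.5 genes were expected in the other 16 libraries and 93 were present in control 2.

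All 106 genes lay on the minus strand of chromosome 12 between 113578504 and 116000461 (GRCm38), 156 to 2577 kb from Ighm. They fell into 15 families of related sequence. Family 1, with 50 genes in the far part of the locus, held 43.5% (NE 1) to 61.2% (control 2) of the total, with a median of 51.5% beside 47.2% of the genes. Family 14 (4 genes, led by Ighv14-2) held 5.73% to 16.6%, family 3 (6 genes, of which Ighv3-6 made up 70.7% of the family's FPKM) held 5.47% to 12.6%, and family 5 (9 genes, nearest to Ighm together with those of family 2) held 4.69% to 10.8%. Family 7 ranged from 0.469% to 12.1%, its upper end in NE 1. Family 6 held 3.82%, 2.49% and 3.27% in the controls, 0.957% to 2.79% after noise alone and 0.505% to 3.57% with brimonidine, and the groups overlapped. Divided by position, the 35 genes nearest to Ighm held 21.5% of the total in control 2 and up to 39.4% elsewhere, and the 36 farthest genes held 44.7% in control 2, the upper end of a range of 29.4% to 44.7%.

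**Figure D3:**
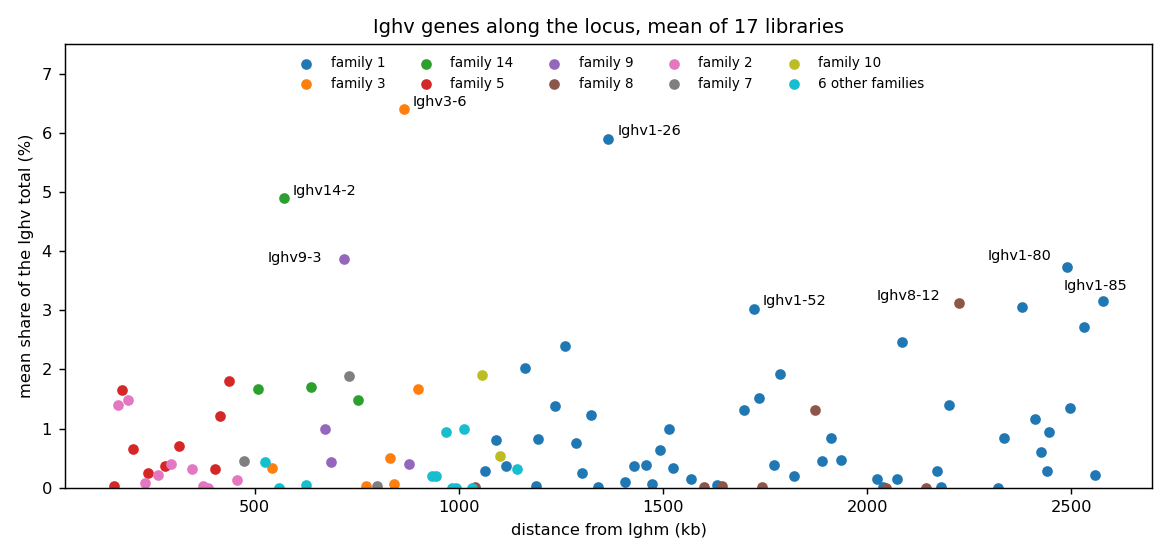
Mean share of the Ighv total over the 17 libraries (%, y axis) of each Ighv gene against its distance from the constant gene Ighm (kb, x axis), colored by family. High and low genes alternate along the locus, with Ighv3-6 and Ighv1-26 highest and all family 1 genes at 1064 kb or beyond.

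The NE group was compared with the control group to find the Ighv genes that differed after noise. Each gene with 1 FPKM or more in at least 3 of the libraries compared was tested with limma on log2(FPKM + 1), which understates the change of low genes, and called where the Benjamini-Hochberg adjusted p over all genes was under 0.05 and the fold change at least 2. Of the 94 Ighv genes tested, 6 were higher in the NE group and none was lower, beside 0.27% of all 15950 genes tested called higher and 5.49% called lower, 5.76% in all. At an unadjusted p under 0.05, 28 of the 94 were higher and none lower, beside 10.6% and 22.3% of all genes, and without control 2 these numbers were 10 and 2 of 93, beside 6.45% and 13.9% of all genes. The log2 fold change was above 0 for 87 of the 94, beside 43.9% of all genes, with a median of 1.20, against -0.04 over all genes. Much of this rested on control 2. Without it 2 Ighv genes were called higher and 0 lower, beside 0.181% and 2.2% of all genes, and the median was 0.53. Of the 93 Ighv genes tested both ways, 91 had a smaller log2 fold change than with control 2, beside 43.2% of all genes, and 73 were above 0, beside 47.1% of all genes.

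The 6 genes called higher were Ighv1-80, Ighv1-52, Ighv5-12, Ighv10-1, Ighv1-76 and Ighv9-2. Ighv1-80 had 95.4, 20.3 and 119 FPKM in the controls and 169 to 487 FPKM, with a median of 339, in the NE group, so that all 7 NE libraries were higher than all 3 controls. The difference was 2.32 on the log2 scale with an SE of 0.48 (limma, adjusted p = 0.00969), and 1.54 (limma, adjusted p = 0.0162) without control 2. By an exact two-sided permutation test its p was 0.0167, the smallest that 7 against 3 allows. Ighv1-52, which also passed without control 2, is described later. Ighv10-1 had 103, 4.77 and 39.5 FPKM in the controls and 110 to 457 (median 180) in the NE group, without overlap. The difference was 2.82 on the log2 scale with an SE of 0.77 (limma, adjusted p = 0.0342), and 1.66 (limma, adjusted p = 0.134) without control 2. The remaining 3 were at lower levels. Ighv5-12 averaged 7.42 ± 10.5 FPKM (SD, n = 3) in controls and 32.8 ± 19.0 (n = 7) after noise alone, and its groups overlapped. Ighv1-76 averaged 20.2 ± 6.63 and 47.5 ± 16.5, and Ighv9-2 averaged 7.76 ± 4.79 and 46.0 ± 38.6, both without overlap. Their log2 fold changes of 2.65, 1.17 and 2.26 became 1.93, 0.90 and 1.65 without control 2, where 1 control fewer entered the test, with adjusted p-values of 0.146, 0.175 and 0.210 (limma). Ighv9-2 was the last gene inside the threshold (adjusted p = 0.0428, limma), and Ighv3-8, with a log2 fold change of 2.21, was the first outside it (adjusted p = 0.0514, limma).

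The FPKM values of the 2 groups did not overlap for 10 of the 94 genes, which were Ighv1-52, Ighv1-54, Ighv1-62-2, Ighv1-76, Ighv1-80, Ighv2-6, Ighv3-8, Ighv5-4, Ighv9-2 and Ighv10-1, all higher in the NE group, beside 3.24% of all genes. Ighv3-6 and Ighv1-26, the highest by mean, did not pass the test. Ighv3-6 averaged 360 ± 292 FPKM in controls and 530 ± 254 after noise alone (exact permutation test, p = 0.383), and Ighv1-26 averaged 280 ± 209 and 478 ± 214 (exact permutation test, p = 0.25). Expressed as shares of the Ighv total, which removes the difference in totals, only Ighv1-52 did not overlap between the groups out of the 105 genes above 0 in any library (0.952%).

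**Figure D4:**
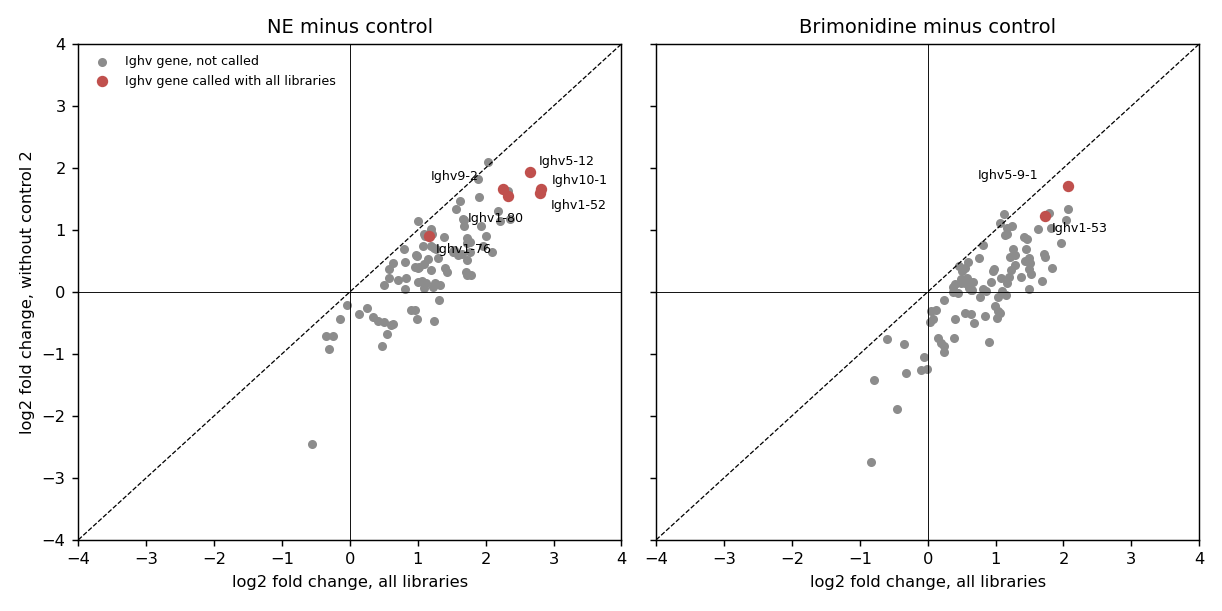
Log2 fold change of each Ighv gene with all libraries (x axis) and without control 2 (y axis) for the NE group (left) and the brimonidine group (right) against control, where the dashed line marks equal values and red points are genes called with all libraries. Of the 93 genes, 91 lie below the line in each panel, and the called genes stay above 0 on both axes.

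The brimonidine group was compared with the NE group to find Ighv genes that differed with the drug. None of the 97 Ighv genes tested was called, in either direction, as was none of all 15707 genes tested (0%, limma), and limma's voom on fragments recovered from the FPKM also called 0 Ighv genes. At an unadjusted p under 0.05, 13 Ighv genes were lower in the brimonidine group and none was higher, beside 2.46% and 3.3% of all genes. The log2 fold change was above 0 for 19 of the 97, beside 57.7% of all genes, and its median was -0.35, against 0.01 over all genes. Ighv1-52 had the smallest p of the family and is described later. Ighv10-1 had 57.1 to 152 FPKM with a median of 103 in the brimonidine group, against 110 to 457 in the NE group, and the log2 fold change was -1.10 with an SE of 0.34 (limma, adjusted p = 0.633). Ighv1-42 had 16.2 to 94.1 FPKM with a median of 21.6, against 37.8 to 234 with a median of 57.9 (limma, log2 fold change -1.21 with an SE of 0.46, adjusted p = 0.807). No Ighv gene had FPKM values that did not overlap between these groups, beside 0.0382% of all genes lower and 0.102% higher. Of the shares, those of Ighv1-52 alone did not overlap, 1 of 105 genes (0.952%).

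In the brimonidine group against control, which shares its control libraries with the NE comparison, 2 of 93 Ighv genes tested were higher and none was lower, beside 0.169% of all 15947 genes called higher and 5.56% called lower, 5.73% in all. At an unadjusted p under 0.05, 20 Ighv genes were higher and 1 was lower, beside 13.6% and 22% of all genes, and without control 2 these numbers were 3 and 4 of 93, beside 10.2% and 15% of all genes. The log2 fold change was above 0 for 84 of the 93, beside 45.8% of all genes. Ighv1-53 had 75.9, 15.4 and 26.6 FPKM in the controls and 70.8 to 163 with a median of 110 in the brimonidine group (limma, log2 fold change 1.73 with an SE of 0.40, adjusted p = 0.0163). Ighv5-9-1 had 22.8, 5.90 and 8.13 FPKM in the controls and 11.1 to 88.9 with a median of 60.0 (limma, log2 fold change 2.07 with an SE of 0.58, adjusted p = 0.0357). The groups overlapped for both genes. In the NE group the same genes had log2 fold changes against control of 1.67 and 1.90. The median over the 93 genes was 0.90, and 0.16 without control 2, where 59 of the 93 were above 0, beside 49.2% of all genes, and 91 had a smaller log2 fold change, beside 42.9% of all genes. No Ighv gene was called higher or lower there, beside 0.116% and 2.9% of all genes, and the log2 fold changes of Ighv1-53 and Ighv5-9-1 were 1.23 and 1.70 with adjusted p-values of 0.0661 and 0.141 (limma). Ighv2-5 was the first gene outside the threshold (adjusted p = 0.0529, limma). Ighv1-85 was the only gene whose FPKM did not overlap, higher in the brimonidine group (149 to 251) than in the controls (139, 8.07 and 79.0), beside 5.07% of all genes. Of the shares, those of Ighv5-2 alone did not overlap, at 0.0354% to 0.183% in the controls and 0.00797% to 0.0348% with brimonidine, 1 of 105 genes (0.952%), at levels of 0.472 to 2.64 FPKM.

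Ighv1-52 (ENSMUSG00000095204, chromosome 12, 115145487 to 115145919, minus strand, GRCm38), a gene of family 1, was 7th of the 106 by mean level. It was the only Ighv gene among those that the study followed by qPCR after sequencing these samples, so its values here are not independent evidence of its direction. Its level was 113, 9.01 and 129 FPKM in controls 1 to 3, then 487, 435, 643, 418, 362, 162 and 267 FPKM in NE 1 to NE 7, and 98.1, 124, 184, 141, 96.0, 57.7 and 172 FPKM in brimonidine 1 to 7. Every NE library was above every control, and 6 of the 7 were above every brimonidine library, the exception being NE 6. Noise against control gave a difference of 2.80 on the log2 scale with an SE of 0.71 (limma, adjusted p = 0.0255), and 1.60 (limma, adjusted p = 0.0466) without control 2. Brimonidine against NE gave -1.64 with an SE of 0.29 (limma, unadjusted p = 5.3e-05, adjusted p = 0.172), with p = 0.00175 in an exact two-sided permutation test in which 0.000583 is the smallest possible. With array weights, which count aberrant libraries less, the adjusted p was 0.0212 (limma). Of 23 alternatives this was the only 1 that called the gene. The adjusted p ran up to 0.99987 over them, and was 0.0681 to 0.405 with a library left out (limma). Brimonidine against control gave 1.16, and -0.04 without control 2.

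The share of Ighv1-52 in the Ighv total separated the NE group from both other groups, which overlapped with each other. It was 2.04%, 1.26% and 2.14% in the controls, 5.22%, 3.17%, 7.55%, 4.41%, 3.59%, 3.51% and 4.69% in NE 1 to NE 7, and 1.72%, 1.85%, 2.88%, 2.39%, 1.84%, 0.929% and 2.28% in brimonidine 1 to 7. The lowest NE share, in NE 2, was above the highest brimonidine share, in brimonidine 3. The means were 1.81% ± 0.479 (SD, n = 3), 4.59% ± 1.49 (n = 7) and 1.98% ± 0.615 (n = 7). NE 2 had the highest total and the lowest share of the NE libraries, and NE 6 had the lowest total and a share of 3.51%. The difference between the NE and control shares was 2.78 percentage points, and 2.28 to 3.01 with any 1 library left out. The difference between the brimonidine and NE shares was -2.61 percentage points, and -2.84 to -2.11 with any 1 library left out.

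Ighv1-52 shares much of its sequence with its relatives. In the GENCODE M21 transcripts its nearest member was Ighv1-61, identical at 98.6% of 351 aligned bases, and 29.7% of its 50-base windows occurred in no other Ighv gene, the fourth lowest share of the 106 genes, whose median was 78.6%. Among all members 51 had a nearest member with at least 95% identity. How fragments that match several genes were divided is not given in the sources used here. With Ighv1-61 added, which had 29.2, 1.88 and 13.1 FPKM in the controls, 10.8 to 115 after noise alone and 17.9 to 41.1 with brimonidine, the joint share was 1.53% to 2.56% in the controls, 3.77% to 8.10% after noise alone and 1.22% to 3.24% with brimonidine, and the NE shares still lay above all others.

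The primers that the study used to measure Ighv1-52 by qPCR, listed here because they set which genes that assay can detect, were forward ctggctacaccttcaccagctac and reverse ggctgtgctggaggatttgtcta, both 5′ to 3′. Each matched 10 of the 106 genes without a mismatch, and both matched Ighv1-52, Ighv1-53, Ighv1-61, Ighv1-69 and Ighv1-74. With up to 1 mismatch in each primer, 11 genes matched. The stretch from the forward to the reverse primer site, bases 131 to 294 of the Ighv1-52 transcript, is 164 bases long in all 5 genes. The 5 stretches are given 5′ to 3′ on the coding strand, where capitals mark bases that differ from Ighv1-52, 4 in Ighv1-61, 13 in Ighv1-74, 14 in Ighv1-69 and 21 in Ighv1-53.
Ighv1-52: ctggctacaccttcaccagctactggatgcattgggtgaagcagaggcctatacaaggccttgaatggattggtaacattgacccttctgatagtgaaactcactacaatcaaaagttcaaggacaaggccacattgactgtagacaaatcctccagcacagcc
Ighv1-61: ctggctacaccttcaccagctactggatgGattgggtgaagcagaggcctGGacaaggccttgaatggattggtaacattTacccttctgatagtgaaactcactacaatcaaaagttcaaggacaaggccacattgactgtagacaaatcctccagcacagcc
Ighv1-74: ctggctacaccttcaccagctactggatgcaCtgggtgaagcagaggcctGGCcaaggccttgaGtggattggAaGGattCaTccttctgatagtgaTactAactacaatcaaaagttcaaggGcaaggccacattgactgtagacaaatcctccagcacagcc
Ighv1-69: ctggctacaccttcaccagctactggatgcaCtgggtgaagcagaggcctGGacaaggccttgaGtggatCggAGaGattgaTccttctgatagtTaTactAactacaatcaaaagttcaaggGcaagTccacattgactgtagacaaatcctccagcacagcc
Ighv1-53: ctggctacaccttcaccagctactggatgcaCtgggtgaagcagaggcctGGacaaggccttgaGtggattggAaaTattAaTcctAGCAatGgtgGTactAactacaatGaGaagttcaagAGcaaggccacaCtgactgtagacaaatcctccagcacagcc
Counted from the first base of this stretch, with the base of Ighv1-52 first, Ighv1-61 carries C30G, A51G, T52G and G81T.

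Within these 5 genes the part of Ighv1-52 was larger in most NE libraries than elsewhere. Ighv1-52 made up 12.9%, 19.3% and 37.1% of their summed FPKM in the controls, 32.5% to 54.1% with a median of 46.4% after noise alone and 9.69% to 33.8% with a median of 23.6% with brimonidine. The sum of the 5 was 875, 46.7 and 348 FPKM in the controls, 500 to 1237 with a median of 900 after noise alone and 415 to 664 with a median of 507 with brimonidine. In control 1 most of that sum was Ighv1-74. The groups overlapped in the sum and in the part of Ighv1-52 within it, unlike in its share of the whole Ighv total. Between the brimonidine and NE groups the log2 fold changes were -0.26 for Ighv1-61, -0.10 for Ighv1-74, -0.74 for Ighv1-69 and 0.06 for Ighv1-53, with adjusted p-values of 0.974, 0.993, 0.733 and 0.996 (limma).

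**Figure D5:**
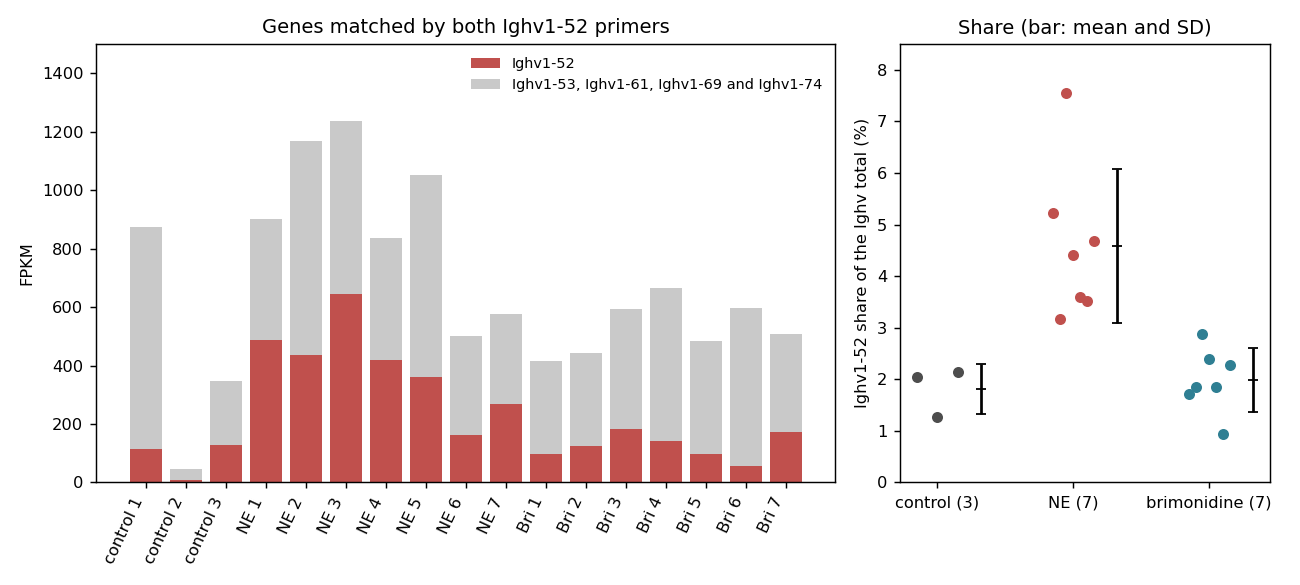
Left, FPKM of Ighv1-52 (red) and of the 4 other genes matched by both of its qPCR primers (gray) in each of the 17 libraries. Right, share of Ighv1-52 in the Ighv total (%) for each library of the 3 groups with mean and SD, where the NE libraries lie at 3.17% to 7.55% and all others at 2.88% or below.

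Genes that act on or beside the Ighv genes were read from gene lists. Of the 8 heavy constant genes none was called in any comparison, and their median log2 fold change was 1.11 in the NE group against control, or 0.37 without control 2. None of the 12 genes of V(D)J recombination, the cutting and joining that builds the gene, was called, and 11, 10 and 10 were tested in NE against control, brimonidine against NE and brimonidine against control. Their summed level was 41.1 to 52.6 FPKM over all libraries. Likewise none was called among the 9 factors of Ighv promoters and enhancers, the 10 partners of the pre-B-cell and B-cell receptor, and the 5 genes of class switching and hypermutation. Of the 10 plasma cell markers 1 was higher in the NE group than in controls, Irf4, a factor that drives plasma cell formation (limma, log2 fold change 1.05 with an SE of 0.28, adjusted p = 0.0314), and 0.97 without control 2 (limma, adjusted p = 0.130). None of the 10 B-cell precursor, 9 mature B-cell, 10 neutrophil, 7 erythroid, 7 T-cell, 9 cochlear epithelium, 8 hair cell and 7 osteoblast markers was called. The plasma cell markers summed to 608 to 2757 FPKM in the controls, 2097 to 5355 after noise alone and 2239 to 3078 with brimonidine, and NE 2 was highest and control 2 lowest, as for the Ighv total. These markers include the heavy constant genes Igha and Ighg2b, at 336 and 64.0 FPKM in control 2 and 1981 and 1953 in NE 2. They also include Jchain, at 110 and 969 FPKM. Antibody RNA thus enters the sum, and its likeness to the Ighv total is partly built in. The part of plasma cells in the Ighv differences was not tested.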

How the data were processed

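Strand-specific mRNA libraries of mouse cochlea were sequenced by the authors, who deposited 1 table of FPKM values per gene and library. Per the labels, the processing notes list Trimmomatic, HISAT2, HTSeq, Cufflinks and the build mm10 (GRCm38), and versions and the handling of fragments that match several genes are not given in the sources used here. The deposited table also pairs each gene with its biotype and position. It holds no counts, so the study's count test was not run. Fragments were recovered from FPKM and GENCODE M21 exon lengths (a whole number within 0.03 for the Ighv genes), which gave the depth of each library. FPKM carry no scaling between libraries beyond the total.

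Groups were taken from the sample titles. For each of 3 comparisons, a linear model with moderated, trended variances (limma 3.58.1, R 4.3.3, 2 groups per model) was fitted on log2(FPKM + 1) over all genes with FPKM of 1 or more in at least 3 libraries, with Benjamini-Hochberg adjustment over those genes. The model was also run on simulated data whose spread within groups was capped, so that run does not cover the wide spread of the controls. Calls needed an adjusted p under 0.05 and a fold change of at least 2. Values of single genes were also compared by exact two-sided permutation tests (scipy 1.17.1). Sums, shares and diversity got no test. The p-values measure the spread between mice, each 1 library. Genes named in the text were the 12 with the highest means, Ighv1-52, genes called in any comparison, the highest gene of any library, and the 5 with the highest ratio of largest to median share among genes reaching 3% of a total. Genes at the edge of a threshold and those listed for non-overlap, Ighv1-61 and Ighv1-69 were added after their values were seen. Members and gene lists were chosen with earlier results of these data known. Alternatives were another pseudocount, no filter, 3 rescalings, all libraries in 1 model, array weights, a replicate block, limma's voom on the recovered fragments (chosen after seeing the data) and leaving out each library. Replicate numbers did not pair the mice. The result of 1 marker list is not reported here.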

Additional observations from a re-analysis of the deposited data

Results flagged for a closer look

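In groups of 7, a library was listed where its gap to the nearest other library was an unusually large part of the group's range (Dixon's 95% critical value). Chance flags about 1 in 20 groups where genes are not chosen for their spread. Here 21 of 102 groups were flagged, but several genes, among them Ighv7-3, Ighv1-5, Ighv1-15 and Ighv1-81, were named because their largest share stood far above their median, so that rate does not apply and nothing is read from the number of flags. In several cases the level and the share of the same gene were both flagged. Most flags were a single gene high in a single mouse.

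Ighv7-3 reached 1060 FPKM and a share of 11.4% in NE 1, where the next NE library had 155 FPKM and 1.37%, and 404 FPKM and 6.06% in brimonidine 2, where the next had 127 FPKM and 1.68%. Ighv14-2 reached 672 FPKM in brimonidine 6 (next 396), and as the highest gene there it made the largest single-gene share of that library, 10.8%, stand apart from the next, 8.17%. Ighv1-81 reached 288 FPKM in NE 2 (next 99.7), and 251 FPKM and 3.33% in brimonidine 7 (next 76.4 FPKM and 1.20%). Ighv1-5 reached 173 FPKM and 3.31% in brimonidine 5 (next 40.3 FPKM and 0.605%), and in the same library the shares of Ighv1-18, 6.73% (next 3.55%), and Ighv1-85, 4.81% (next 3.14%), were flagged. Ighv1-15 reached 160 FPKM and 2.12% in brimonidine 7 (next 68.5 FPKM and 1.10%).

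Among the genes called in a comparison, Ighv1-76 reached 82.9 FPKM and 1.30% in brimonidine 3 (next 38.1 FPKM and 0.614%), and its share was low in NE 2, at 0.194% against 0.535% for the next. Ighv9-2 reached 75.5 FPKM and 1.13% in brimonidine 2 (the next share was 0.507%). Ighv5-12 had a share of 1.16% in brimonidine 1 (next 0.525%). No value of Ighv1-52 was flagged.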

How the results depend on the processing

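Of the values that summarize a comparison, 191 computed under an alternative stayed within 1.5 times (counts) or 1 SD between replicates (other values), and 26 did not. The spread among controls is wide, so values within it include large moves without control 2: the log2 ratio of totals went from 1.53 to 0.53 in NE against control and from 1.11 to 0.10 in brimonidine against control, the median log2 fold change from 1.20 to 0.53 and from 0.90 to 0.16, and the effective number difference from -1.81 to 0.97 and from -1.50 to 1.28. The number of Ighv genes called in NE against control, 6, became 2 without the filter, 18 with 17 libraries in 1 model, 13 with array weights (12 higher, 1 lower), 3 with voom and 0 with the replicate block, and ranged from 2 (without control 2) to 13 (without control 1) with a library left out, with 12 without control 3 and 3 without NE 4. In brimonidine against NE it was 0, and 1 (Ighv1-52) with array weights. In brimonidine against control it was 2, and became 1 without the filter, 5 with equal totals, 4 with median ratio scaling, 4 with quantile normalization, 5 with 17 libraries in 1 model, 15 with array weights (9 higher, 6 lower) and 1 with the replicate block, and ranged from 0 (without control 2) to 11 (without control 1), with 6 without control 3. Counting genes at 1 FPKM in place of the effective number gave 5.71 in NE against control and 4 in brimonidine against control, both negative by the effective number. Apart from the fits without control 2, the share of all genes called under each alternative is not given here. The counts of Ighv genes called under the alternatives are therefore not read as results about the family. The cause of the moves under the alternatives was not tested.

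Ighv1-80 and Ighv1-52 were each called in NE against control under 18 of 19 alternatives, the exception being the replicate block. The other called genes were less stable, with Ighv5-12 called under 12, Ighv10-1 under 11, and Ighv1-76 and Ighv9-2 under 9 each. In brimonidine against control, Ighv1-53 was called under 16 of 19 alternatives and Ighv5-9-1 under 8. Of the single-gene values, 437 stayed on their side of the threshold, 51 lost a call, 17 gained one and 9 changed sign. The sign changes were in brimonidine against NE for Ighv1-53 (0.06, with array weights -0.19, with a library left out -0.17 to 0.23) and Ighv5-9-1 (0.17, with array weights -0.16, with a library left out -0.055 to 0.50), and in brimonidine against control for Ighv1-52 (1.16, with array weights -0.13, with a library left out -0.044 to 1.81) and Ighv1-76 (0.40, with array weights -0.15). Libraries of the same replicate number did not deviate together (correlations of -0.23 to 0.084), so the numbers were not treated as pairs. The number of Ighv fragments limits control 2 most, at 3951.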
